A study of Mus musculus with 12 samples.

Results

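The genes that make microRNAs and carry out their silencing were followed in livers that overexpressed a single microRNA gene. The set holds 10 genes, namely Drosha, Dgcr8, Xpo5, Dicer1, Ago1, Ago2, Ago3, Tnrc6a, Tnrc6b and Tnrc6c, chosen by name from the 55401 genes of the RNA-seq count table, and all 10 were expressed above the filter on low counts. Livers came from 12 female mice aged 15 weeks on a C57BL/6J background, 6 iTgMir483 and 6 littermate Control mice. The iTgMir483 mice carried 1 copy of Mir483 in a Tet-off cassette (the tTA activator and a TetO-miniCMV promoter) at the Rosa26 locus, opened by a cross to CMV-Cre, a Cre line that is active in all tissues from early embryogenesis. Doxycycline was given in the drinking water during pregnancy and then withdrawn, a design meant to turn the transgene on from birth and not in liver alone. After birth, the paper reports the mature microRNA raised in liver, a thigh muscle and gonadal fat. The labels call the other group only controls, and whether those mice carried the Cre or the unopened transgene was not analysed here.

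A primary microRNA transcript is cut in the nucleus by the Microprocessor, in which Drosha is the nuclease and Dgcr8 the RNA-binding partner. Exportin 5, the product of Xpo5, carries the resulting hairpin to the cytoplasm, where Dicer1 trims it to a short duplex. An Argonaute protein keeps 1 strand, pairs its seed with matching messenger RNAs, and recruits a GW182 protein (Tnrc6a, Tnrc6b or Tnrc6c), which in turn brings in the enzymes that shorten the poly(A) tail, block translation and remove the cap.

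The overexpressed gene gives rise to 2 mature microRNAs. Their sequences (RefSeq, GRCm38.p6) are shown with the seed, bases 2 to 8, in capitals, because the seed decides which transcripts can pair with each arm.
mmu-miR-483-3p: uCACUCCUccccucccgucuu
mmu-miR-483-5p: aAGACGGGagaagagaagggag

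The complement of the 3p seed, AGGAGTG, was searched on the sense strand in the longest annotated 3′ UTR of each gene. It occurred in 12.59% of 12098 tested genes and in 4 of the 10 machinery genes. Drosha held 1 match, which starts at base 9 of a 3′ UTR of only 169 bases. Dicer1 held 2 matches, Ago3 held 2 in a 3′ UTR of 12742 bases, and Tnrc6b held 1. The complement of the 5p seed, CCCGTCT, occurred in 3.26% of genes and once among the 10, in Dicer1. For neither arm was the share over all genes matched for 3′ UTR length, so no excess can be read from these counts. The 3′ UTR is also long in Tnrc6b, at 11609 bases, and in Ago2, at 11064 bases, where no match was found. These matches are shown because they are the places in the longest annotated 3′ UTRs where the whole seed could pair. Shorter matches and other parts of the transcripts were not searched. A match is a description of the letters and not a shown site. Each window has the match in capitals and 7 bases on either side, read on the strand of the gene (GRCm38), and the match itself spans the coordinates given.
Drosha (chr15:12935131-12935137, plus strand, 3′ UTR base 9): cgagggcAGGAGTGgcggagc
Dicer1 (chr12:104691350-104691356, minus strand, 3′ UTR base 237): tagtcacAGGAGTGctttaat
Dicer1 (chr12:104689317-104689323, minus strand, 3′ UTR base 2270): cgcgatcAGGAGTGcgtttgt
Ago3 (chr4:126340406-126340412, minus strand, 3′ UTR base 5062): catcaaaAGGAGTGccccaga
Ago3 (chr4:126333418-126333424, minus strand, 3′ UTR base 12050): ctttctgAGGAGTGaactgta
Tnrc6b (chr15:80932889-80932895, plus strand, 3′ UTR base 3413): agctcgtAGGAGTGacaccac
Dicer1, 5p match (chr12:104690555-104690561, minus strand, 3′ UTR base 1032): ggaccaaCCCGTCTggggtag
The second Ago3 match and the Tnrc6b match are followed directly by an adenine, and the other 3p matches are not.

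Libraries held between 12244123 and 30431286 counts assigned to genes. These libraries capture poly(A) RNA, so reads at Mir483 come from longer transcripts that hold the hairpin and not from the mature microRNAs. Mir483 had 0 counts in all 6 Control livers and 318 to 761 counts in the iTgMir483 livers, 37.1 ± 13.1 CPM (counts scaled to 1000000 per library, SD, n = 6), which is at least 194-fold above the level that 3 counts per Control library would give. In each of the 12 libraries Alb, the hepatocyte albumin gene, had the most counts. All 5 macrophage markers examined (Adgre1, Cd68, Clec4f, Csf1r, Lyz2) rose in the iTgMir483 livers, and their summed level was 195 to 306 CPM in Control and 331 to 799 CPM in iTgMir483 livers, highest in iTgMir483 replicate 4. Among the other lists, 3 of 5 bile duct genes, 1 of 5 endothelial genes, both neutrophil genes tested and Ptprc rose, 2 of 8 hepatocyte genes fell, and no stellate or erythroid gene passed the test. Over all genes tested, 11.3% rose and 7.33% fell at the same adjusted p threshold of 0.05. Of the endothelial genes, 2 (Kdr and Clec4g) had negative log2 fold changes without passing. In bulk RNA, fewer cells of a type and less RNA per cell cannot be told apart.

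Of the 10 machinery genes, 1 rose and none fell. Drosha was about 1.4 times as abundant in iTgMir483 as in Control livers, while the levels of the other nine overlapped between the groups and none of them passed the test. The 95% intervals of these genes all lay within a change of 1.5-fold in either direction. Here the test is edgeR's quasi-likelihood F-test with Benjamini-Hochberg adjustment over all 13205 genes tested, and adjusted p refers to it throughout. An adjusted p under 0.05 with a higher level was reached by 11.3% of all genes tested, and with a lower level by 7.33%, so 1 higher call among 10 genes is near the share over all genes. With a fold change over 1.5 required as well, 11.1% of all genes in either direction but 0 of the 10 machinery genes passed. The count was also 0 with DESeq2 and with limma-voom, and 1 of the 10, Drosha, had an unadjusted p under 0.05, which 33.4% of all genes tested had. The median log2 fold change of the 10 genes was -0.02, beside 0.01 over all genes tested, with 5 positive and 5 negative values.

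**Figure D1:**
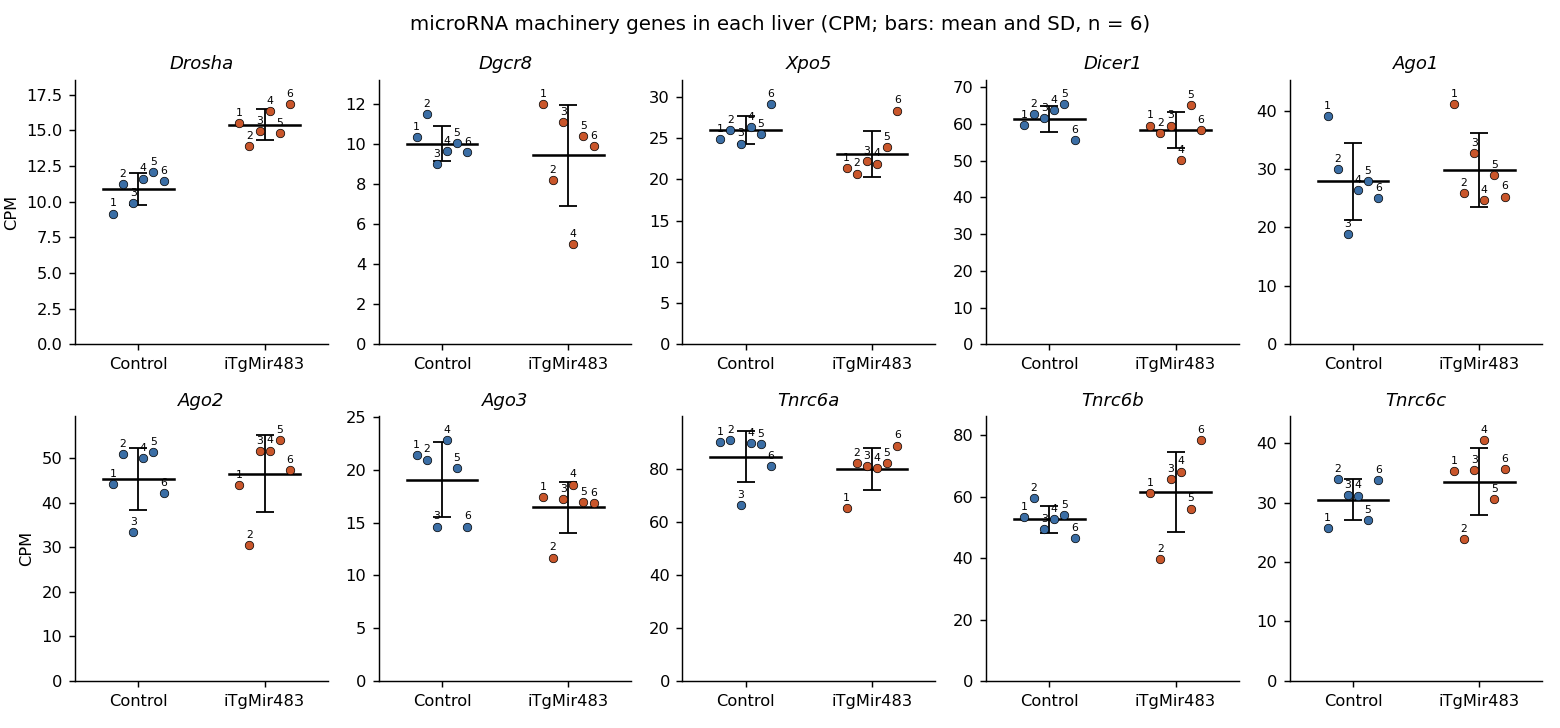
Level in CPM (vertical axis, from 0) of each machinery gene in the 6 Control livers (blue) and the 6 iTgMir483 livers (orange), with points numbered by replicate and bars giving the mean and SD. Drosha is the panel in which the groups do not overlap, with Control livers up to 12.1 CPM and iTgMir483 livers from 13.9 CPM.

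Drosha (chr15:12824815-12935291, plus strand) encodes the nuclease that makes the first cut. Its level was 9.16, 11.2, 9.90, 11.6, 12.1 and 11.4 CPM in Control replicates 1 to 6, and 15.5, 13.9, 14.9, 16.3, 14.8 and 16.9 CPM in iTgMir483 replicates 1 to 6. Every iTgMir483 liver lay above every Control liver. Such separation upwards was seen in 5.09% of all genes tested, and downwards in 2.83%. The means were 10.9 ± 1.12 and 15.4 ± 1.08 CPM (SD, n = 6 each), from 125 to 340 counts a library. The log2 fold change was 0.50 ± 0.10 (SE), with a 95% interval of 0.29 to 0.70 and an adjusted p of 0.00357 by edgeR. On the linear scale this is an increase of 41.1%, with an interval for the ratio from 1.22 to 1.63, so that it lies across the fold threshold of 1.5. The transcript that rose is one of those with a 3p seed match in its 3′ UTR, the match printed above at base 9. The exons of Drosha overlap those of Gm47288, annotated as a microRNA gene on the same strand. The effect of that overlap on the counts was not tested.

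The rise of Drosha held in each alternative fit, with log2 fold changes from 0.42 to 0.53 and adjusted p from 0.000128 to 0.0153. Without iTgMir483 replicate 4, the library with the highest macrophage signal, the log2 fold change was 0.48 (adjusted p = 0.00613, edgeR). The part of the macrophage, bile duct and neutrophil markers in the Drosha result was not tested. The 2 genes whose log2 CPM profiles over the 12 livers, centred on the Control mean, lay nearest to that of Drosha were Hip1 and Setd5, with root mean square differences of 0.13 for each among 13204 genes. Hip1 rose by 0.58 and Setd5 by 0.53 on the log2 scale (adjusted p = 0.00272 and 0.000919, edgeR). This measure includes the difference between the groups, so the rises of Hip1 and Setd5 follow in part from how they were picked. The nearest other machinery genes were Tnrc6b at position 998 and Tnrc6c at position 1437.

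Dgcr8 (chr16:18253948-18289246, minus strand) encodes the partner that holds the hairpin for Drosha and did not rise with it. Control livers had a lowest, median and highest level of 8.99, 9.84 and 11.5 CPM, and iTgMir483 livers of 4.98, 10.2 and 12.0 CPM. The groups overlapped, and the lowest value of all, from 68 counts, was that of iTgMir483 replicate 4. iTgMir483 minus Control was -0.09 ± 0.17 on the log2 scale (SE, 95% interval -0.45 to 0.28, adjusted p = 0.762, edgeR), and without that library it was 0.04 (adjusted p = 0.833). The coefficient of variation of Dgcr8 was 8.57% in Control and 26.8% in iTgMir483 livers, whereas that of Drosha was 10.3% and 7.03%. The Dgcr8 values rest on single livers, being 5.28% in Control livers without replicate 2 and 13.8% in iTgMir483 livers without replicate 4.

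The annotation places several genes over Dgcr8. Its exons overlap those of Trmt2a on the opposite strand and those of Gm49776, also annotated as protein-coding, on the same strand. The Mir1306 hairpin lies within the Dgcr8 coding sequence. The counting is not stated to use strand, so the Dgcr8 counts are uncertain where exons are shared with Trmt2a. Whether reads on shared exons were added or left out was not examined. Strand could not separate reads on exons shared with Gm49776.

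The ratio of Drosha to Dgcr8, each in CPM per kb of exon, describes the balance of the 2 Microprocessor transcripts, and its size depends on the length used for each gene. It was 1.15, 1.26, 1.43, 1.56, 1.56 and 1.54 in Control replicates 1 to 6, and 1.67, 2.20, 1.75, 4.25, 1.84 and 2.21 in iTgMir483 replicates 1 to 6. The groups did not overlap, and the iTgMir483 range is stretched by replicate 4, where Dgcr8 was lowest. No test was run on this ratio, which shares the Drosha values given above.

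Xpo5 (chr17:46202782-46243598, plus strand) encodes the export receptor for the hairpin. Its level was 24.8, 26.0, 24.3, 26.3, 25.5 and 29.2 CPM in Control replicates 1 to 6, and 21.4, 20.7, 22.3, 21.9, 23.9 and 28.3 CPM in iTgMir483 replicates 1 to 6. All iTgMir483 livers except replicate 6 lay below the lowest Control liver, so the groups overlapped through a single liver. On the log2 scale the difference was -0.17 ± 0.09 (SE, 95% interval -0.37 to 0.02, adjusted p = 0.196, edgeR). Its adjusted p ran from 0.0627 to 0.378 over the alternative fits, with the value below Control in each.

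Dicer1 (chr12:104687742-104751952, minus strand), the nuclease that cuts the hairpin into a duplex, was among the steadiest of the set. It had a lowest, median and highest level of 55.5, 62.1 and 65.5 CPM in Control livers and 50.1, 58.9 and 65.2 CPM in iTgMir483 livers. The groups overlapped over most of their range, and iTgMir483 replicate 4 was lowest. Dicer1 differed by -0.07 ± 0.08 on the log2 scale (SE), and the 95% interval of -0.24 to 0.09 leaves out a change of 1.5-fold in either direction (adjusted p = 0.543, edgeR). Dicer1 holds 3 of the seed matches printed above, 2 for the 3p arm and 1 for the 5p arm.

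**Figure D2:**
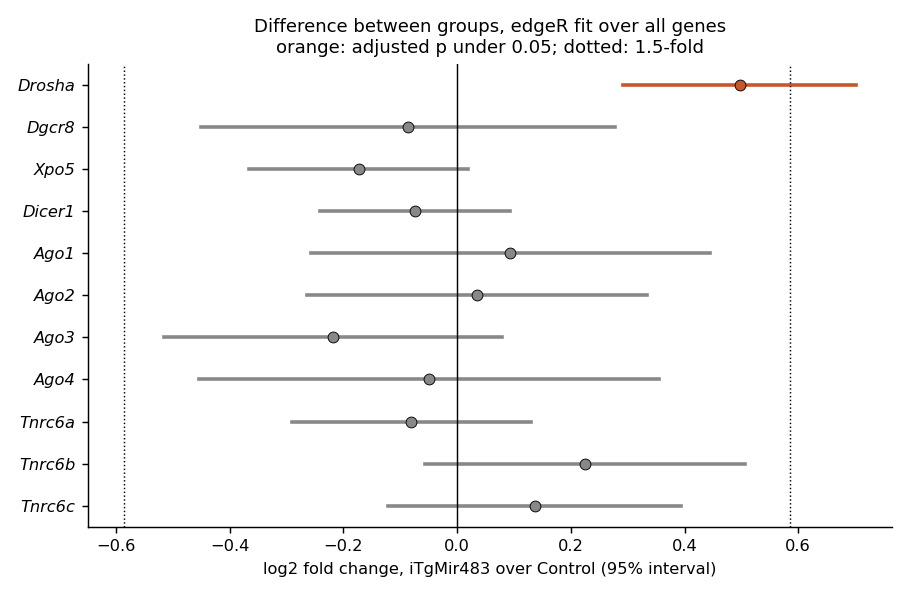
Log2 fold change of iTgMir483 over Control livers (horizontal axis) with its 95% interval for the 10 machinery genes and Ago4, from the edgeR fit over all genes. The interval of Drosha, in orange, lies above 0 from 0.29 to 0.70 and crosses the dotted line at 1.5-fold, while every other interval contains 0.

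The Argonautes hold the mature microRNA. None of the 3 in the set, nor Ago4, passed the test. Ago1 (chr4:126435012-126468583, minus strand) had a lowest, median and highest level of 18.9, 27.2 and 39.1 CPM in Control livers and 24.7, 27.4 and 41.2 CPM in iTgMir483 livers. Replicate 1 was the highest in both groups, and the medians were close. For Ago1 the log2 fold change was 0.09 ± 0.16 (SE, 95% interval -0.26 to 0.44, adjusted p = 0.730, edgeR), and without iTgMir483 replicate 1 it was -0.02.

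Ago2 (chr15:73095844-73184935, minus strand), the Argonaute that can itself cut a fully paired target, had a lowest, median and highest level of 33.5, 47.1 and 51.4 CPM in Control and 30.5, 49.4 and 53.9 CPM in iTgMir483 livers. In each group 1 liver stood lowest, Control replicate 3 and iTgMir483 replicate 2, and the other livers overlapped. For Ago2 the log2 fold change was 0.03 ± 0.14 (SE, 95% interval -0.26 to 0.33, adjusted p = 0.888, edgeR). Leaving out Control replicate 3 gave -0.04, and leaving out iTgMir483 replicate 5 gave -0.01. Its exons overlap those of Chrac1 on the opposite strand, with the same uncertainty as for Dgcr8 and Trmt2a.

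Ago3 (chr4:126331704-126429556, minus strand), whose 3′ UTR holds 2 of the matches, had a level of 21.4, 20.99, 14.6, 22.8, 20.2 and 14.6 CPM in Control replicates 1 to 6. In iTgMir483 replicates 1 to 6 it was 17.5, 11.7, 17.2, 18.6, 17.0 and 16.9 CPM. Control livers split into 4 near 20 to 23 CPM and 2 at 14.6 CPM, so the groups overlapped, and iTgMir483 replicate 2 was lowest of all. The log2 fold change of -0.22 ± 0.14 (SE, 95% interval -0.52 to 0.08) had an adjusted p of 0.295 by edgeR. Ago4, which completes the family, was at 5.71 ± 0.669 CPM in Control and 5.50 ± 1.64 CPM in iTgMir483 livers (SD, n = 6 each), with a log2 fold change of -0.05 ± 0.19 (SE) and an adjusted p of 0.881 (edgeR).

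Per kb of exon, Ago1 made up 39.4% ± 3.94 and Ago2 37.5% ± 3.48 of the Argonaute transcripts in Control livers, and 41.7% ± 5.76 and 37.7% ± 5.48 in iTgMir483 livers (SD, n = 6 each). Ago3 made up 13.3% ± 1.38 in Control and 11.3% ± 1.29 in iTgMir483 livers, with overlapping ranges of 11.3% to 15.4% and 9.87% to 13.5%. The summed level of the family was 8.64 ± 1.36 CPM per kb in Control and 8.77 ± 1.01 CPM per kb in iTgMir483 livers. Ago1 and Ago2 thus held most of the family in both groups, and the sums differed by less than their spread.

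The GW182 genes connect Argonaute to the deadenylases, and none of the 3 passed the test. Tnrc6a (chr7:123123885-123195296, plus strand) had a lowest, median and highest level of 66.4, 89.6 and 90.8 CPM in Control and 65.3, 81.7 and 88.9 CPM in iTgMir483 livers. A single liver stood low in each group, Control replicate 3 and iTgMir483 replicate 1, and the other livers overlapped as well. Tnrc6a had a log2 fold change of -0.08 ± 0.10 (SE, 95% interval -0.29 to 0.13, adjusted p = 0.605, edgeR). Its exons overlap those of Gm45846, annotated as a long non-coding RNA gene on the same strand.

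Tnrc6b (chr15:80711313-80941085, plus strand) had 53.4, 59.5, 49.5, 52.7, 54.0 and 46.6 CPM in Control replicates 1 to 6, and 61.1, 39.7, 65.9, 68.2, 56.1 and 78.3 CPM in iTgMir483 replicates 1 to 6. The iTgMir483 livers spread on both sides of the Control range, 4 of them above it and replicate 2 below it. The log2 fold change was 0.23 ± 0.13 (SE, 95% interval -0.06 to 0.51, adjusted p = 0.251, edgeR). This is the one gene of the set whose call rests on a library, because without iTgMir483 replicate 2 the log2 fold change was 0.32 with an adjusted p of 0.0322. Its coefficient of variation was 8.32% in Control and 21.2% in iTgMir483 livers, and 12.7% in the latter without replicate 2. The exons of Tnrc6b overlap those of Mir5113, annotated as a microRNA gene on the same strand.

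Tnrc6c (chr11:117654289-117763439, plus strand) had a lowest, median and highest level of 25.7, 31.2 and 34.0 CPM in Control and 23.8, 35.3 and 40.4 CPM in iTgMir483 livers. The iTgMir483 range extended past the Control range at both ends. Tnrc6c had a log2 fold change of 0.14 ± 0.12 (SE, 95% interval -0.12 to 0.39, adjusted p = 0.458, edgeR). As a share of the GW182 transcripts per kb, Tnrc6a held 59.0% ± 3.22 in Control and 55.0% ± 5.57 in iTgMir483 livers, and Tnrc6b 19.8% ± 1.20 and 22.4% ± 3.13 (SD, n = 6 each), with overlapping ranges for both.

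Low values of several machinery genes fell in the same livers. Control replicate 3 had the lowest Control level of 5 of the 10 genes (Dgcr8, Xpo5, Ago1, Ago2 and Tnrc6a). Among iTgMir483 livers, replicate 2 was lowest for 6 genes (Drosha, Xpo5, Ago2, Ago3, Tnrc6b and Tnrc6c) and replicate 4 for 3 (Dgcr8, Dicer1 and Ago1). The share of all genes tested with their lowest level in these livers was not counted. These counts are therefore no result about the machinery. Mir483 itself was highest in iTgMir483 replicate 2, at 54.3 CPM, and lowest in iTgMir483 replicate 4, at 23.3 CPM. iTgMir483 replicate 6, with 47.8 CPM of Mir483, had the highest iTgMir483 level of 4 machinery genes (Drosha, Xpo5, Tnrc6a and Tnrc6b). A relation to the Mir483 level was not tested.

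Compared per kb of exon, which allows levels to be ordered between genes, Tnrc6a was the most abundant of the set in Control livers at 6.66 ± 0.755 CPM per kb and Ago3 the least at 1.15 ± 0.215 CPM per kb (SD, n = 6 each), a ratio of 5.78. With the longest transcript in place of the union of exons, this ratio was 8.44, and Dicer1 (6.24) stood before Xpo5 (5.12) and Tnrc6b (3.04) before Tnrc6c (2.63 CPM per kb). Between them stood, in falling order, Xpo5 (3.79), Dicer1 (3.67), Ago1 (3.44), Ago2 (3.23), Tnrc6c (2.38), Tnrc6b (2.22), Drosha (1.84) and Dgcr8 (1.30 CPM per kb). The 2 steps larger than the spread were those from Tnrc6a, at least 5.23 CPM per kb in each Control liver, to Xpo5, at most 4.25, and from Drosha, at least 1.54, to Dgcr8, at most 1.49. All other neighbours in the order overlapped between livers. The step from Drosha to Dgcr8 depended on the length used, since with the longest transcript their Control ranges overlapped, Drosha reaching up to 2.64 and Dgcr8 down to 2.08 CPM per kb. In iTgMir483 livers the mean of Drosha, 2.59 ± 0.182 CPM per kb, stood beside Tnrc6b at 2.60 ± 0.551 and Tnrc6c at 2.61 ± 0.443.

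**Figure D3:**
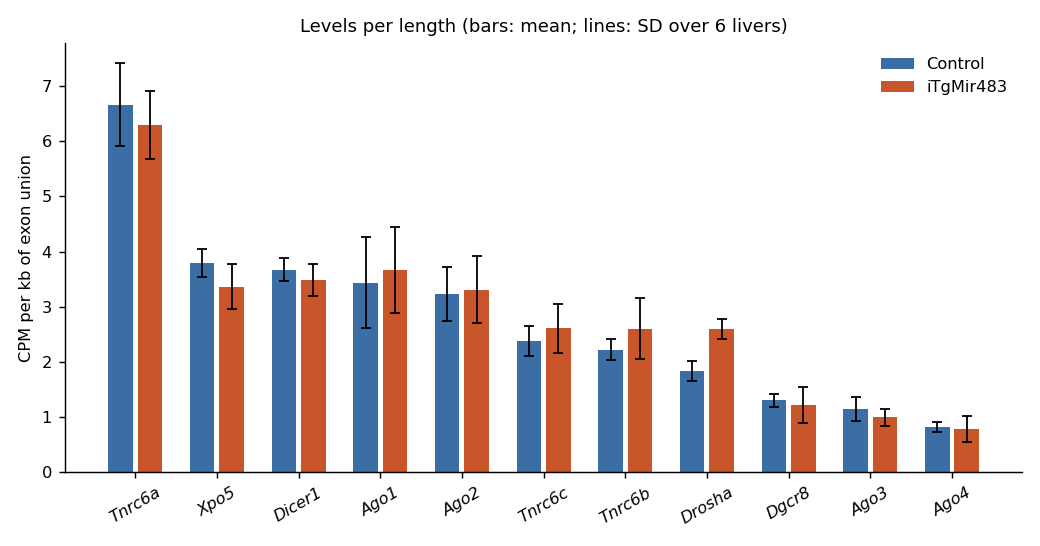
Mean level in CPM per kb of the union of annotated exons (vertical axis, from 0) with the SD over 6 livers, for Control (blue) and iTgMir483 (orange), in the order of the Control means. Tnrc6a stands above the rest at 6.66 in Control, and Drosha moves from 1.84 to 2.59, up to the level of Tnrc6b and Tnrc6c.

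A further 71 genes of the pathway, in 6 lists by role, were read in the same fit. Of the 68 tested, 12 fell and none rose. The median log2 fold change was -0.08, beside 0.01 over all genes, and 12 of 68 stands beside the 7.33% of all genes that fell. With an unadjusted p under 0.05, 3 were higher and 19 lower, beside 18.6% higher and 14.8% lower of all genes tested. DESeq2 called 1 gene higher and 15 lower, and limma-voom called 0 higher and 12 lower. Downward separation without overlap was seen in 5 of the 68, beside 2.83% of all genes tested. Upward separation was seen in 0, beside 5.09%.

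The genes that load or accompany Argonaute held 6 of the 12 falls, among 12 tested, with a list median of -0.39. The share that fell over all genes tested was 7.33%. Hsp90aa1, the stress-inducible HSP90 chaperone that helps a duplex enter Argonaute, had 74.9, 150.4, 145.8, 217.1, 120.9 and 175.6 CPM in Control replicates 1 to 6, and 69.7, 51.5, 93.3, 50.5, 84.6 and 83.4 CPM in iTgMir483 replicates 1 to 6. All iTgMir483 livers were below the other 5 Control livers, and the groups overlapped only through Control replicate 1. It fell by 1.03 on the log2 scale (SE 0.22, adjusted p = 0.00663, edgeR). The co-chaperones fell too, Stip1 by 0.73, Fkbp4 by 0.59 and Ptges3 by 0.58 on the log2 scale (adjusted p = 0.00649, 0.0211 and 0.00839, edgeR), and Ptges3 did so without overlap, its highest iTgMir483 level being 22.2 CPM and its lowest Control level 22.8 CPM. These chaperones act on many client proteins besides Argonaute. Hspa8, the HSP70 of the loading machinery, was at -0.60 with an adjusted p of 0.0612, and Mov10, a helicase found with Argonaute, at 0.40 with an adjusted p of 0.0807 (edgeR).

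Of the partners of export and of Dicer, 2 of 6 fell, beside 7.33% of all genes tested. Tsn, whose product with that of Tsnax forms the C3PO nuclease that removes the discarded strand, had 40.6, 38.5, 42.7, 40.3, 37.4 and 38.7 CPM in Control replicates 1 to 6, and 28.1, 28.5, 31.9, 23.5, 26.3 and 27.3 CPM in iTgMir483 replicates 1 to 6. The groups did not overlap, and the fall was 0.52 on the log2 scale (SE 0.08, adjusted p = 0.00113, edgeR). Tsnax was at -0.24 (adjusted p = 0.0536). Ran, the GTPase that Exportin 5 needs to hold its cargo, fell by 0.40 on the log2 scale (adjusted p = 0.0202, edgeR), and the double-stranded RNA-binding partners of Dicer, Tarbp2 and Prkra, did not pass.

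In the remaining lists few genes moved, and their counts stand beside the 7.33% of all genes tested that fell. Among 11 nuclear cofactors, Ncbp1, the large subunit of the cap-binding complex, fell by 0.42 on the log2 scale (adjusted p = 0.0266, edgeR). Of 17 deadenylation genes, the CCR4-NOT catalytic subunits Cnot6l and Cnot7 fell by 0.34 each (adjusted p = 0.0171 and 0.0324, edgeR). Of 14 repression, decapping and decay genes, Lsm14b fell by 0.34 (adjusted p = 0.00719, edgeR). None of the 8 tailing and turnover genes tested passed.

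**Figure D4:**
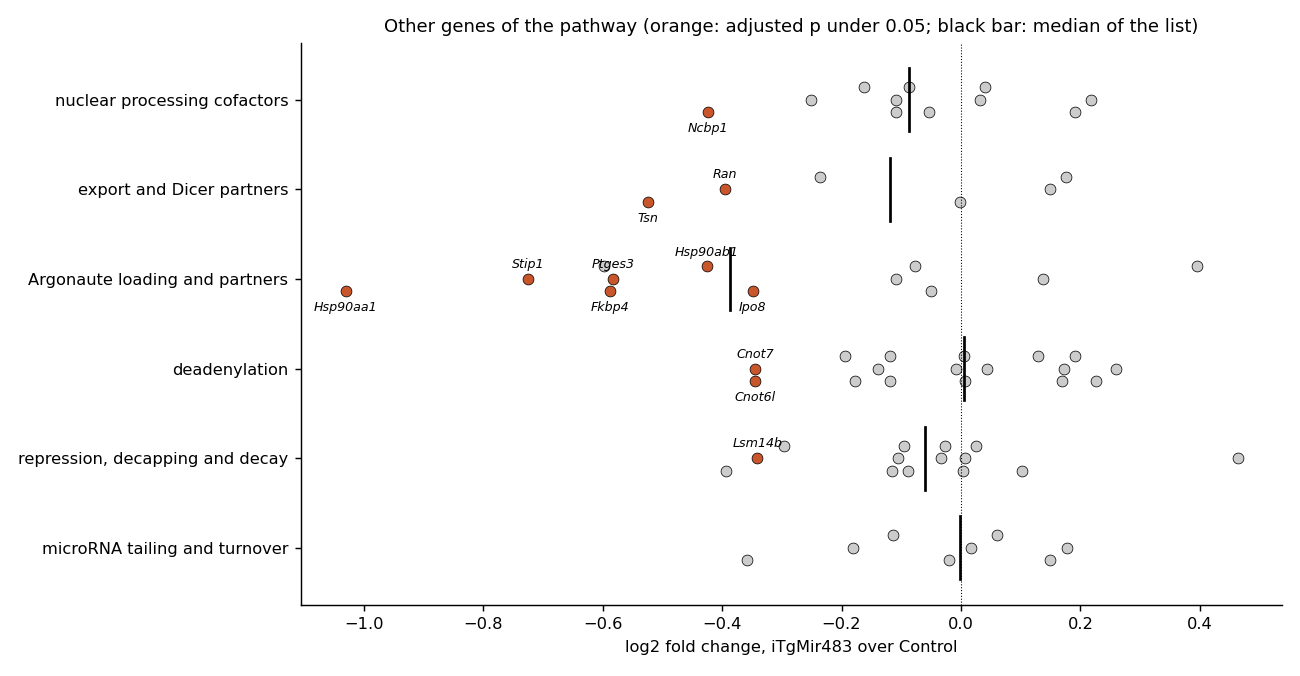
Log2 fold change of iTgMir483 over Control livers (horizontal axis) of the 68 tested pathway genes, 1 point a gene, by role, with the list median as a black bar. The 12 genes in orange, with an adjusted p under 0.05, all lie below 0, and 6 of them belong to the list of Argonaute loading genes.

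**Figure D5:**
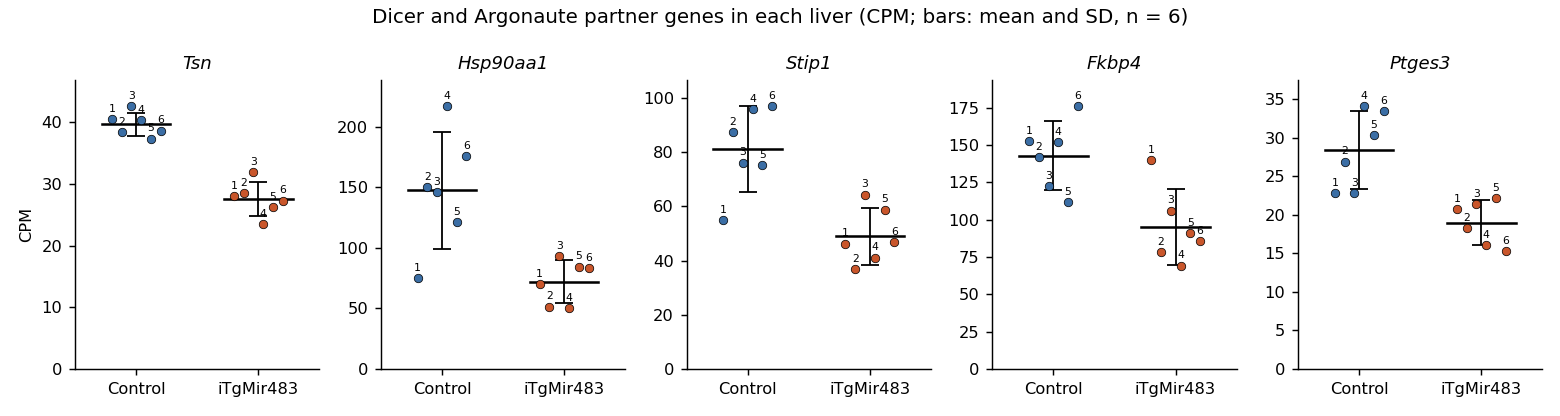
Level in CPM (vertical axis, from 0) of Tsn and of 4 chaperone genes of Argonaute loading in each liver, numbered by replicate, with the mean and SD. Tsn and Ptges3 do not overlap between groups, while Hsp90aa1 and Stip1 overlap through Control replicate 1, at 74.9 and 54.8 CPM.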

How the data were processed

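Liver RNA of 12 mice was sequenced as stranded poly(A) libraries, paired-end, in a single pool, and the authors aligned reads with STAR to GRCm38 and deposited raw counts per gene. The strand setting is not given in the sources used here. Library sizes were adjusted with TMM factors and the counts tested with edgeR 4.0.16, a quasi-likelihood F-test after filtering genes with low counts, with Benjamini-Hochberg adjustment over 13205 genes, an adjusted p threshold of 0.05 and, where stated, a fold change over 1.5. CPM are counts scaled to 1000000 per TMM-adjusted library, and levels per kb use the union of exons of GENCODE M21. Sequences came from RefSeq (microRNAs) and GENCODE M21 transcripts. Symbols were found for 55141 of 55401 identifiers. DESeq2 1.42.0, limma 3.58.1 and leaving out each liver were the main alternatives, and the fit was tested on simulated data.

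The 10 genes and the pathway and marker lists were chosen with earlier results of these data known. Genes named are the 10, Ago4, Mir483, up to 4 pathway genes per list and direction that passed, marker genes, and the 2 genes nearest to Drosha in profile. Hspa8, Mov10, Tsnax, Tarbp2 and Prkra were named after their values were seen. Labels number separate animals, littermates among them. Total counts per library were 12244123 to 30431286. The 95% intervals come from the edgeR fit and include the spread between mice. The limit of 3 counts used for Mir483 covers counting error only.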

Additional observations from a re-analysis of the deposited data

Results flagged for a closer look

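In each group of 6 livers the gap of the most distant liver to its neighbour was compared with the range of the group, and 7 of 77 such groups passed Dixon's critical value of 0.625, where chance gives about 1 in 20. Among the machinery genes, Ago3 in iTgMir483 replicate 2 was at 11.7 CPM with the other 5 livers between 16.9 and 18.6 CPM (gap over range 0.748), and Tnrc6a in iTgMir483 replicate 1 was at 65.3 CPM with the others between 80.5 and 88.9 CPM (0.644). Among the other genes named, Cnot6l in Control replicate 3 was at 27.1 CPM with the others between 34.9 and 38.5 CPM (0.687), and Hspd1 in Control replicate 1 was at 313.8 CPM with the others between 430.1 and 484.4 CPM (0.682). The summed macrophage markers of iTgMir483 replicate 4 were at 799 CPM with the others between 331 and 452 CPM (0.741). The summed stellate cell markers of Control replicate 5 were at 400.2 CPM with the others between 305 and 335 CPM (0.682). Control replicate 4 had 30431286 counts, with the other Control totals between 12244123 and 17834937 (0.693).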

How the results depend on the processing

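Drosha was the 1 machinery gene past the adjusted p in 19 of 20 alternative fits, and without iTgMir483 replicate 2 the count was 2, with Tnrc6b added (log2 fold change 0.32). Leaving out 1 liver at a time, 1 to 2 machinery genes, 8 to 15 pathway genes and, with the fold threshold of 1.5 added, 1190 to 1653 genes overall passed, beside 1470 with all livers. Over the same 12 fits, genes that never passed had log2 fold changes on both sides of 0: Dgcr8 from -0.17 to 0.043 (the latter without iTgMir483 replicate 4), Ago1 from -0.021 (without iTgMir483 replicate 1) to 0.21, Ago2 from -0.041 (without Control replicate 3) to 0.13 and Ago4 from -0.16 to 0.068 (without iTgMir483 replicate 4). Ago4 was also positive without replicate 1 of either group, and Ago2 negative without iTgMir483 replicate 5. With both replicate 1 livers left out, Ago4 was at 0.089, and 12 pathway genes fell and 3 rose, where the reported fit has 12 and 0. In a fit chosen after seeing the data, without those livers and iTgMir483 replicate 4, Tnrc6a was at 0.0000, Tnrc6c at -0.0041 and Ago4 at 0.24. The ratio of the highest to the lowest level per kb moved from 5.78 to 8.44 with the longest transcript. The cause was not tested.

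The reported fit does not pair livers by replicate number. The correlation of same-numbered deviations was 0.44 for replicate 1 and 0.034 to 0.167 for the rest, so the replicate 1 livers varied together to some extent. The labels do not give the litter, and litter was not modelled. With the replicate block, 1530 genes (fold threshold included), 1 machinery gene and 12 pathway genes passed, and Drosha was at 0.50 (adjusted p = 0.0103, edgeR). Counts of 68 to 340 a library limit the precision for Dgcr8 and Drosha.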

Other observations

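Because several chaperones of Argonaute loading fell, a list of 17 other heat shock and chaperone genes was read after those values had been seen. The list holds Hsf1 and the HSP90 partners Cdc37, Ahsa1 and Chordc1 as well, of which Ahsa1 and Chordc1 fell. Of the 16 tested, 6 fell and none rose, beside 7.33% lower and 11.3% higher of all genes tested. At an unadjusted p under 0.05, 9 were lower and none higher, beside 14.8% and 18.6% of all genes, and the list median was -0.38 on the log2 scale. Hsph1, an HSP110 chaperone, fell by 1.30 (SE 0.37, adjusted p = 0.0242, edgeR), from 30.6, 94.4, 63.2, 156.0, 63.0 and 114.6 CPM in Control replicates 1 to 6 to 31.4, 11.6, 53.3, 29.7, 46.9 and 38.5 CPM in iTgMir483 replicates 1 to 6. The mitochondrial chaperonin pair Hspd1 and Hspe1 fell by 0.57 and 0.48, and Ahsa1, an activator of HSP90, by 0.47 (adjusted p = 0.00601, 0.0165 and 0.0112, edgeR). Hspa5 and Hsp90b1, the chaperones of the endoplasmic reticulum, were at -0.36 and -0.37 and did not pass (adjusted p = 0.347 and 0.0652). Hsf1, the transcription factor of the heat shock response, was at -0.14 (adjusted p = 0.286, edgeR).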
